A study of Solanum lycopersicum with 12 samples.

Results

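The genes described here are the 7 ethylene receptors of tomato (*ETR1*, *ETR2*, *NR*, *ETR4*, *ETR5*, *ETR6* and *ETR7*) and *EIN2*, the membrane protein through which all receptors signal. They were chosen by identifier, as a gene family with its common downstream partner and with earlier results of these data known. They make up 8 of the 34075 genes counted. The identifiers place *ETR1* on chromosome 12, *ETR2* on chromosome 7, *ETR4* on chromosome 6, *ETR5* on chromosome 11, *ETR7* on chromosome 5, and *NR*, *ETR6* and *EIN2* on chromosome 9.

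Ethylene is a gaseous hormone that plants make in response to wounding, chewing insects and infection, and also during fruit ripening. Its receptors sit in the membrane of the endoplasmic reticulum and are negative regulators. Without ethylene they keep a CTR1-type kinase active, which phosphorylates EIN2 and holds it inactive. When ethylene binds, the kinase is released, and a part of EIN2 is cut off and moves to the nucleus, where transcription factors of the EIN3/EIL family are stabilised. Because the receptors repress the response, more receptor protein lowers ethylene sensitivity until it is occupied by the hormone. Plant receptors fall into subfamily I, which keeps the motifs of a histidine kinase and here holds *ETR1*, *ETR2* and *NR*, and subfamily II, in which these motifs are degenerate, with *ETR4* to *ETR7*.

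RNA was sequenced from leaflets of tomato plants (cultivar Better Bush, the only genotype, grown in nutrient film under a 16 h photoperiod) that had carried 6 larvae of the leafminer *Tuta absoluta*, or from the matching leaflets of plants given a mock deposition. Leaflets were harvested after 5 h and after 24 h. Each harvest gave 3 infested and 3 control libraries. Larvae were removed before freezing, so all groups consist of leaf tissue, and in such bulk tissue fewer cells of a type and less RNA per cell cannot be told apart. The study infested 6 plants and gave 6 others a mock deposition. Neither it nor the labels state that the 3 libraries of a group are separate plants, so p-values measure only the spread between these libraries. The library totals ranged over 19655669 to 28209033 counts.

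Levels are given as CPM, the usual scaling of counts to library size, here after TMM normalization. They are not corrected for gene length, so a level is compared only within a gene. A log2 fold change (log2FC) sets infested over control leaflets and comes from a single edgeR model of all 12 libraries. A gene is called a DEG at an adjusted p below 0.05 in edgeR's quasi-likelihood test, with Benjamini-Hochberg adjustment over the 18200 genes that exceeded 1 CPM in 3 or more libraries. Of the 8 genes, 7 passed this filter, and *ETR6* did not.

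The labels were first checked against herbivory. The summed level of 11 response to wounding genes, which the study itself chose on these samples, was 1396, 4565 and 3314 CPM in the infested 5 h libraries, against 32.5 to 35.3 CPM in the control 5 h libraries. It was 28043, 8486 and 29047 CPM in the infested 24 h libraries, against 30.7 to 97.4 CPM in the control 24 h libraries. Every infested library thus stood far above every control library, and infested 24 h replicate 2 was the lowest of its group. The summed level of 26 photosynthesis genes, chosen in the study as lower at 24 h, was 56405 to 75176 CPM in infested 5 h, 67689 to 80573 CPM in control 5 h, 7407 to 12038 CPM in infested 24 h and 19222 to 25102 CPM in control 24 h. A list of 3 identifiers held to be leaf markers, for which the sources used here give no names, was called lower in infested 24 h in 3 of 3 and was not called between the controls, with log2FC of -0.29 to -0.12, control 24 h over control 5 h. The part of these shifts in the results below was not tested.

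Across the family, *ETR4* was the only DEG after 5 h of feeding, and *ETR1*, *ETR4*, *ETR5* and *EIN2* were DEGs after 24 h, all higher in infested leaflets. *ETR4* was 5.54-fold higher at 5 h and 2.41-fold higher at 24 h, whereas the other 3 DEGs differed by 1.37- to 1.82-fold at 24 h. No member was called lower at either time, where 5.59% of all tested genes were at 5 h and 12.5% at 24 h. *ETR1*, *ETR4*, *ETR5*, *ETR7* and *EIN2* are also genes that the study singled out among its up-regulated DEGs of the later harvest, so their direction there is not independent evidence. The 2 lists rest on unlike rules: the study's methods also required an absolute log fold change above 1.5, and the calls here have no such limit. With that limit on the log2FC, 0 of the members were called at 24 h here, and *ETR7* was not called even without it.

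**Figure D1:**
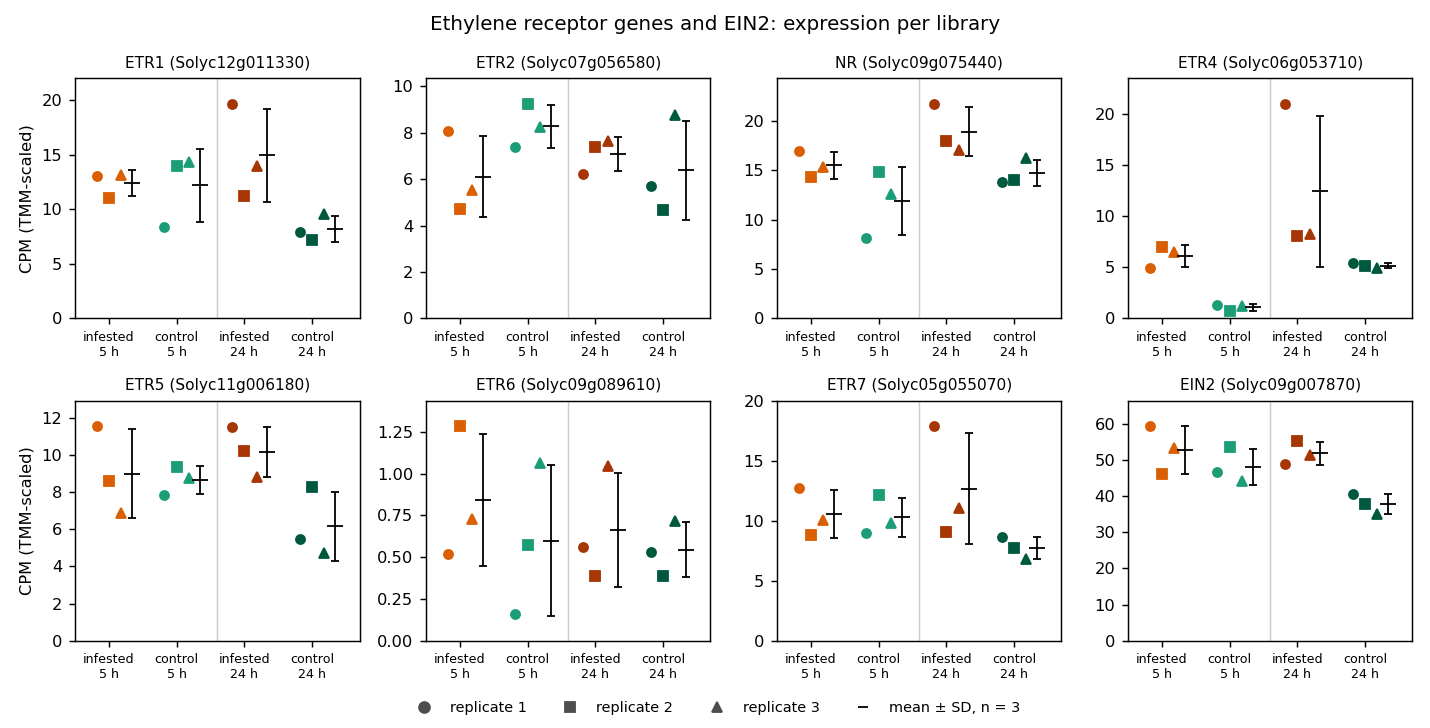
Level of each of the 8 genes (CPM, linear axis from 0, one panel per gene) in every library, with infested left of control within 5 h and within 24 h. Points are libraries and bars are group means with SD (n = 3). *ETR4* of control 5 h lies between 0.735 and 1.35 CPM, below all other groups, and *EIN2* of control 24 h lies between 35.1 and 40.7 CPM, below all other groups.

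*ETR4* (*Solyc06g053710*) is a subfamily II receptor whose mRNA is known in tomato to rise with ethylene and with pathogen infection. In infested 5 h it had 4.91, 6.97 and 6.53 CPM (132, 174 and 117 counts), against 1.35, 0.735 and 1.22 CPM (34, 18 and 30 counts) in control 5 h. The lowest infested library stood above the highest control library. The log2FC was 2.47 (SE 0.39, 95% confidence interval 1.63 to 3.31, edgeR adjusted p = 0.00128). Thus 1 of the 7 genes tested was called higher at 5 h, where 6.94% of all tested genes were. The same gene was the only one of the 7 whose infested libraries all lay above the controls, a pattern seen in 17.5% of tested genes. The call held in all 12 fits that left out a library, with log2FC between 2.25 and 2.64, and in the 8 other settings tried on it.

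At 24 h, *ETR4* had 21.0, 8.10 and 8.31 CPM in infested leaflets, against 5.44, 5.12 and 4.95 CPM in control leaflets. The groups did not overlap, but the infested libraries were far apart: infested 24 h replicate 1 stood far above the others, and the coefficient of variation of the group was 59.3%. The log2FC was 1.27 (SE 0.35, interval 0.51 to 2.02, edgeR adjusted p = 0.0205). This call rested on few libraries. Without infested 24 h replicate 1 the log2FC was 0.68 (adjusted p = 0.0862), without control 24 h replicate 1 the adjusted p was 0.0529 and without control 24 h replicate 3 it was 0.0622.

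The 4 group means of *ETR4* were 6.14 ± 1.09 CPM in infested 5 h, 1.10 ± 0.324 CPM in control 5 h, 12.5 ± 7.39 CPM in infested 24 h and 5.17 ± 0.247 CPM in control 24 h (SD, n = 3 each). In increasing order these are control 5 h, control 24 h, infested 5 h and infested 24 h. The neighbours control 24 h and infested 5 h overlapped, so that mock-treated leaflets at 24 h held about as much *ETR4* as leaflets eaten for 5 h. Control 5 h lay below every other library of the series. The smaller log2FC at 24 h thus stood beside a higher control level and not beside a lower infested level.

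*ETR5* (*Solyc11g006180*), a further receptor of subfamily II, showed no such early difference. It had 11.6, 8.62 and 6.86 CPM in infested 5 h, against 7.84, 9.35 and 8.78 CPM in control 5 h. The infested libraries lay on both sides of the controls, and the log2FC was 0.06 (interval -0.45 to 0.58, edgeR adjusted p = 0.910). After 24 h the levels were 11.5, 10.2 and 8.81 CPM in infested leaflets, against 5.48, 8.26 and 4.73 CPM in control leaflets, without overlap. This gave a log2FC of 0.72 (SE 0.24, interval 0.21 to 1.24, adjusted p = 0.0440), a 1.65-fold difference. It was the weakest of the calls at 24 h, since it remained in only 4 of 12 fits that left out a library. The highest adjusted p among those fits was 0.149, without control 24 h replicate 3.

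*ETR7* (*Solyc05g055070*), also of subfamily II, had 12.7, 8.78 and 10.1 CPM in infested 5 h, against 8.95, 12.1 and 9.80 CPM in control 5 h. The groups overlapped fully, with a log2FC of 0.03 (interval -0.50 to 0.56, edgeR adjusted p = 0.955). After 24 h of feeding it had 17.9, 9.06 and 11.1 CPM in infested leaflets, against 8.62, 7.72 and 6.83 CPM in control leaflets. All infested libraries were above the controls, and replicate 1 was again the highest. The log2FC was 0.71 (SE 0.24, interval 0.18 to 1.24), a 1.64-fold difference, and the adjusted p of 0.0523 missed the threshold. The call turned with the method: the adjusted p was 0.0294 with DESeq2, 0.0358 with edgeR's likelihood ratio test and 0.0254 with library totals as the only scaling. Without infested 24 h replicate 1 the log2FC fell to 0.40, and without infested 24 h replicate 2 the adjusted p was 0.0142.

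*ETR6* (*Solyc09g089610*), the last receptor of subfamily II, was close to the limit of detection. It had 14, 32 and 13 counts in infested 5 h, against 4, 14 and 26 counts in control 5 h, and 15, 12 and 29 counts in infested 24 h, against 15, 10 and 16 counts in control 24 h. No library exceeded 1.28 CPM, where 3 counts correspond to 0.0960 to 0.167 CPM. Infested and control libraries overlapped at both times. When genes of low counts were kept, its log2FC was 0.52 at 5 h (SE 0.67) and 0.29 at 24 h (SE 0.67), with edgeR adjusted p of 0.762 and 0.843. A difference of the size seen in *ETR1* or *ETR5* was not detectable at this depth.

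In subfamily I, *ETR1* (*Solyc12g011330*), the counterpart of the first ethylene receptor described in *Arabidopsis*, had 13.1, 11.1 and 13.2 CPM in infested 5 h, against 8.36, 14.0 and 14.3 CPM in control 5 h. The control libraries enclosed the infested ones, and the log2FC was 0.03 (interval -0.49 to 0.55, edgeR adjusted p = 0.965). The later harvest gave 19.7, 11.2 and 14.0 CPM in infested leaflets, against 7.95, 7.18 and 9.55 CPM in control leaflets. The groups did not overlap, and the log2FC was 0.86 (SE 0.24, interval 0.34 to 1.39, adjusted p = 0.0227), a 1.82-fold difference. The call was lost without infested 24 h replicate 1 (adjusted p = 0.0886), control 24 h replicate 1 (0.0641) or control 24 h replicate 2 (0.0640), with log2FC between 0.63 and 1.04 over all 12 fits.

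*NR* (*Solyc09g075440*) is the receptor altered in the *Never-ripe* mutant, whose fruit do not ripen because they are insensitive to ethylene. It had 16.9, 14.3 and 15.3 CPM in infested 5 h, against 8.16, 14.9 and 12.6 CPM in control 5 h. A single control library reached into the infested range, and the log2FC was 0.38 (SE 0.20, interval -0.04 to 0.81, edgeR adjusted p = 0.252). The later libraries held 21.7, 18.0 and 17.1 CPM in infested leaflets, against 13.8, 14.0 and 16.2 CPM in control leaflets. The groups did not overlap, yet the log2FC of 0.36 (SE 0.19, interval -0.06 to 0.78) did not pass the test (adjusted p = 0.199). The intervals at both times include 0 and allow differences of up to about the size seen in *ETR5* at 24 h.

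*ETR2* (*Solyc07g056580*) had 8.07, 4.73 and 5.52 CPM in infested 5 h, against 7.37, 9.23 and 8.25 CPM in control 5 h. It was the only member with a negative log2FC at 5 h, -0.44 (SE 0.26, interval -0.99 to 0.12, edgeR adjusted p = 0.326), because replicates 2 and 3 of infested 5 h were below all controls. Its levels at 24 h were 6.23, 7.36 and 7.63 CPM in infested leaflets, against 5.72, 4.66 and 8.75 CPM in control leaflets. The controls enclosed the infested libraries, and the log2FC was 0.15 (interval -0.40 to 0.71, adjusted p = 0.707). Without control 24 h replicate 2 this value was -0.03.

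*EIN2* (*Solyc09g007870*) had 786 to 1727 counts per library, the most of the 8 genes, and the smallest SE of the 7 tested. Loss of this protein makes plants insensitive to ethylene. It had 59.4, 46.1 and 53.3 CPM in infested 5 h, against 46.7, 53.6 and 44.1 CPM in control 5 h, and the log2FC was 0.14 (SE 0.12, interval -0.13 to 0.40, edgeR adjusted p = 0.544). At 24 h it had 48.9, 55.3 and 51.6 CPM in infested leaflets, against 40.7, 38.0 and 35.1 CPM in control leaflets. The groups were well apart, with a log2FC of 0.45 (SE 0.12, interval 0.19 to 0.72, adjusted p = 0.0188), a 1.37-fold difference. This small difference was the most stable call of 24 h: it held in 11 of 12 fits that left out a library and did not pass the test once control 24 h replicate 3 was left out (adjusted p = 0.0685).

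**Figure D2:**
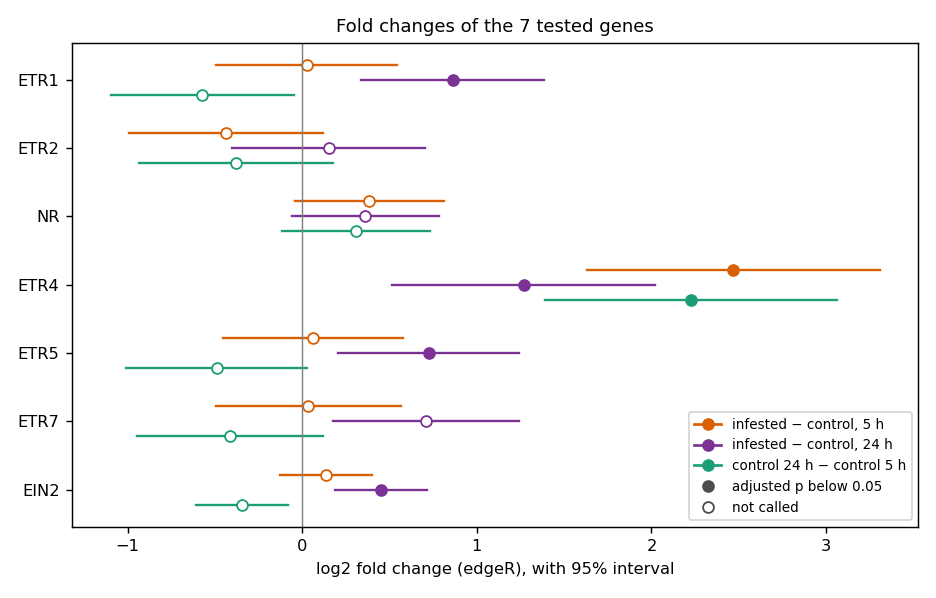
Log2FC of the 7 tested genes, infested minus control at 5 h and at 24 h, and control 24 h minus control 5 h. Lines are 95% confidence intervals from edgeR's model of all 12 libraries. Filled symbols mark adjusted p below 0.05. For infested minus control, the interval of *ETR4* alone excludes 0 at 5 h, and those of *NR* and *ETR2* include it at 24 h. Between the controls, the symbol of *ETR4* alone is filled.

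At 24 h, 4 of the 7 tested genes were called higher, where 11.8% of all tested genes were, and 0 were called lower, where 12.5% were. In 6 of the 7 (all but *ETR2*) every infested library lay above every control library, which held for 17.8% of tested genes. The study had singled out *ETR1*, *ETR4*, *ETR5*, *ETR7* and *EIN2* as higher in these same libraries, so these counts are not independent evidence. The log2FC was positive in 7 of 7 members, where 51.3% of all genes were positive. The median of the members was 0.71, against 0.02 for all genes. The early log2FC was positive in 6 of 7, where 46.8% of all genes were, and the median was 0.06, against -0.03 for all genes. Without infested 5 h replicate 1 or without control 5 h replicate 1, the early log2FC was positive in 3 of 7. With library totals as the only scaling, the median of all genes at 24 h moved to 0.21 and the members lay between 0.35 and 1.46. With the 6 libraries of 24 h alone, edgeR's test called 0 of the 7, although 6 had an unadjusted p below 0.05 and the log2FC were about the same (1.29 for *ETR4*, 0.88 for *ETR1*, 0.75 for *ETR5* and 0.47 for *EIN2*). The adjusted p were 0.0512 for *EIN2*, 0.0567 for *ETR1*, 0.0695 for *ETR4* and 0.0959 for *ETR5*. In that fit 11.1% of all genes were called in either direction, against 24.3% with all 12 libraries.

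**Figure D3:**
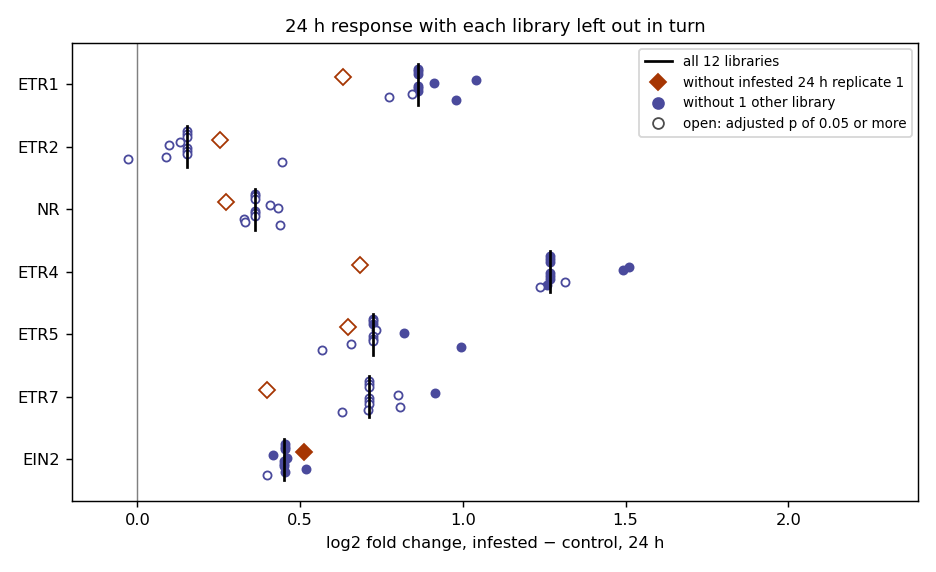
Log2FC at 24 h, infested minus control, of the 7 tested genes in the fit of all 12 libraries and in the 12 fits that each left out a library. Filled symbols mark adjusted p below 0.05. *EIN2* varies least, between 0.40 and 0.52, and *ETR4* most, between 0.68 and 1.51.

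Whether the response differed between the times was tested as the difference between the log2FC, 24 h minus 5 h. None of the 7 members was called by edgeR's quasi-likelihood test, by its likelihood ratio test or by DESeq2, and 2.16% of all genes were called by the first of these. At an unadjusted p below 0.05 there were 2 of 7, *ETR1* with a difference of 0.84 (SE 0.34, edgeR adjusted p = 0.229) and *ETR4* with -1.20 (SE 0.51, edgeR adjusted p = 0.25), where 17.2% of all genes passed that limit. These lay in opposite directions, *ETR1* with the larger log2FC at 24 h and *ETR4* with the larger at 5 h. Without infested 24 h replicate 1, the difference of *ETR4* was -1.80 and its adjusted p was 0.0364. For *NR* the difference was -0.02 (SE 0.28), and for the remaining 4 members it was 0.31 to 0.68. The calls of *ETR1*, *ETR5* and *EIN2* at 24 h and their absence at 5 h are therefore not shown to be a change with time.

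The control groups themselves differed between the harvests. *ETR4* was 4.67-fold higher in control 24 h than in control 5 h (log2FC 2.22, SE 0.38, interval 1.39 to 3.06, edgeR adjusted p = 0.00107), with 4.95 to 5.44 CPM in control 24 h, against 0.735 to 1.35 CPM in control 5 h. This was 1 of 7 members called higher, where 13.7% of all genes were, and it held in all 12 fits that left out a library. No member was called lower by edgeR's test with all 12 libraries, where 14% of all genes were. DESeq2 called none lower either, although *ETR1* and *EIN2* had an unadjusted p below 0.05. In edgeR's model their log2FC, control 24 h minus control 5 h, were -0.57 (SE 0.24, edgeR adjusted p = 0.101) and -0.34 (SE 0.12, edgeR adjusted p = 0.0531). With a library left out, *ETR1* and *ETR5* were each called lower in 1 of 12 fits, and *EIN2* in 2. In *ETR7* and *EIN2* all control 24 h libraries lay below all control 5 h libraries, which was 2 of 7 members and held for 23.2% of all genes.

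Control 24 h had the lowest mean of the 4 groups in *ETR1*, *ETR5*, *ETR7* and *EIN2*. It was also lowest in *ETR6*, which did not pass the filter and whose groups overlapped throughout. The share of all genes with control 24 h lowest was not computed, so whether this is unusual is not known. *EIN2* averaged 52.9 ± 6.68 CPM in infested 5 h and 48.1 ± 4.91 CPM in control 5 h, then 51.9 ± 3.20 CPM in infested 24 h and 37.9 ± 2.83 CPM in control 24 h. *ETR5* averaged 9.01 ± 2.37, 8.66 ± 0.761, 10.2 ± 1.35 and 6.16 ± 1.86 CPM in the same order of groups (SD, n = 3 each). *ETR1* averaged 12.4, 12.2, 14.9 and 8.23 CPM in that order, and *ETR7* 10.5, 10.3, 12.7 and 7.72 CPM. The mean of infested 24 h lay between the means of 5 h in *EIN2* and above both in *ETR1*, *ETR5* and *ETR7*. The mean of control 24 h lay below both in all of these genes. With all 12 libraries, edgeR's test called none of them lower in control 24 h than in control 5 h. For *ETR5* that log2FC was -0.49 (SE 0.24, edgeR adjusted p = 0.152), and for *ETR7* it was -0.41 (SE 0.25, edgeR adjusted p = 0.241). The comparison of the controls shares the control 24 h libraries with the infested comparison of that time, so these values are not independent of the calls above. Harvest time and the input shared in mapping, numbered 851 for all libraries of 5 h and 13 for all of 24 h, changed together and cannot be told apart.

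The make-up of the receptor transcripts was described by the share of each gene in the counts of the 7 receptors, which does not depend on the scaling of libraries and was not tested. *ETR4* took 10.3% ± 2.75 of receptor counts in infested 5 h, against 2.20% ± 0.992 in control 5 h (SD, n = 3), with libraries of 7.24 to 12.5% against 1.21 to 3.19%. At 24 h it took 15.4% ± 5.14 in infested leaflets, against 10.6% ± 0.949 in control leaflets. The share of *ETR2* ran the other way at 5 h, with 8.49 to 11.9% in infested libraries, against 14.7 to 17.5% in control libraries. *NR* held 25.0 to 26.3% in infested 5 h, against 19.3 to 24.4% in control 5 h, and 22.0 to 28.0% in infested 24 h, against 29.1 to 31.4% in control 24 h. Its share was thus higher in infested libraries at 5 h and lower at 24 h, without overlap at either time. Shares add up to the whole, so the share of a gene can fall because others rise. The level of *NR* itself was higher in infested leaflets at 24 h, with means of 18.9 CPM against 14.7 CPM, though it was not called. The mean shares of *ETR1*, *ETR5* and *ETR7* lay closer together, and the widest gap among them was that of *ETR1* at 24 h, with 19.3% in infested leaflets, against 16.8% in control leaflets.

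**Figure D4:**
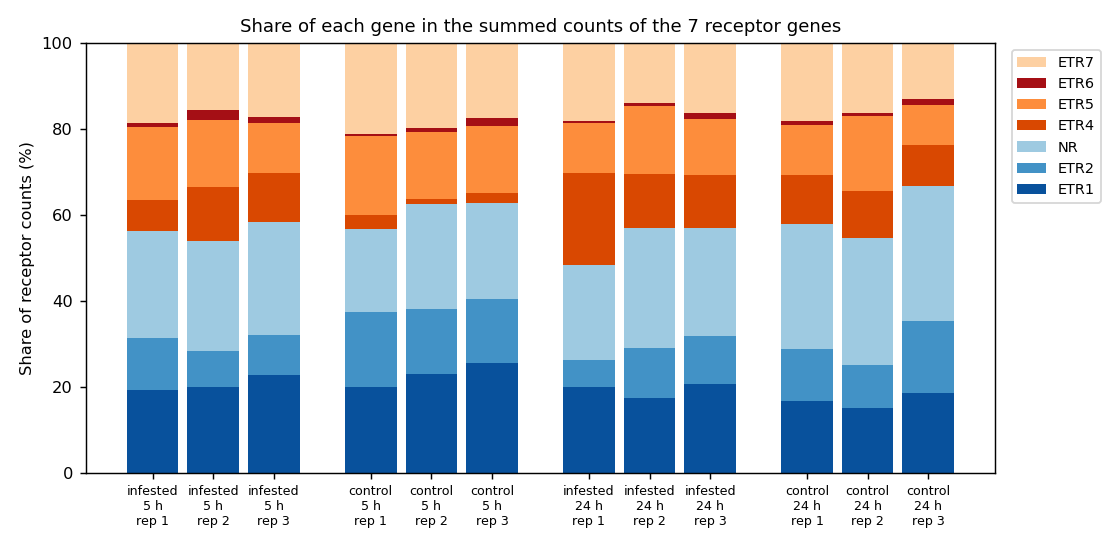
Share of each receptor gene in the summed counts of the 7 receptors, as a stacked bar that adds up to the whole for each of the 12 libraries, infested left of control within each time. *ETR4* takes 1.21 to 3.19% in control 5 h and 7.24 to 12.5% in infested 5 h, and reaches 21.3% in infested 24 h replicate 1.

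Summed over the 7 receptors, the level was 67.8, 55.7 and 58.2 CPM in infested 5 h, against 42.2, 60.8 and 56.1 CPM in control 5 h. These groups overlapped. At 24 h the sum was 98.5, 64.3 and 67.9 CPM in infested leaflets, against 47.6, 47.4 and 51.8 CPM in control leaflets, without overlap. Leaving *ETR4* out, it was still 77.5, 56.2 and 59.5 CPM in infested 24 h, against 42.1, 42.2 and 46.8 CPM in control 24 h. Infested 24 h replicate 1 thus held the highest receptor level of the series with or without *ETR4*, and the highest level of *ETR1*, *NR*, *ETR4* and *ETR7*. It also had the lowest summed photosynthesis level, 7407 CPM. Whether these go together was not tested.

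The members did not vary as a block across the 12 libraries, which share treatment, time and depth. Over all libraries the closest pair was *ETR1* and *ETR7*, with Pearson r = 0.84 and Spearman rho = 0.83 of log2 CPM, and r = 0.68 for deviations from the group means. Within groups the closest pair was *ETR1* and *NR*, with r = 0.85, against 0.57 over all libraries. The r of *ETR4* was 0.20 to *ETR1*, 0.23 to *ETR7* and 0.03 to *EIN2*. Its highest r was with *NR*, 0.69 overall and -0.12 within groups, so this likeness lay between the groups and not within them. The lowest r over all libraries was that of *ETR4* and *ETR2*, -0.49, with -0.51 within groups, and the lowest within groups was that of *ETR4* and *EIN2*, -0.60. Among all tested genes, the pattern most like that of *ETR4* was found in *Solyc09g007920*, a phenylalanine ammonia-lyase gene of phenylpropanoid synthesis, with r = 0.98 over the 12 libraries and 0.84 within groups. There were 63 genes with r above 0.9 to *ETR4*, against 0 to 9 for each of the other members. Their best matches had r between 0.86 and 0.95. These counts use r over the 12 libraries, which includes the differences between groups, and were not made for deviations from the group means.

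**Figure D5:**
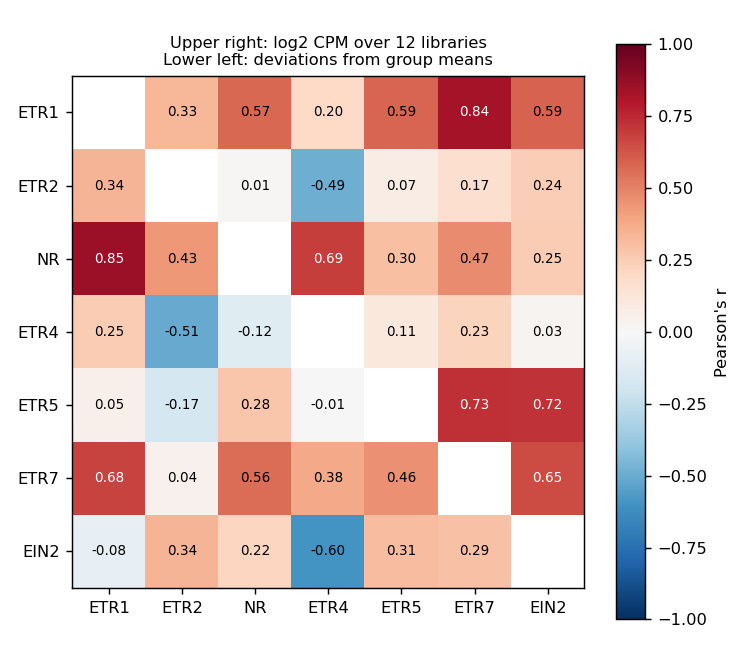
Pearson r of log2 CPM for each pair of the 7 tested genes over the 12 libraries, as a colour scale from -1 to 1 with the value in each cell, once for the values themselves and once for deviations from the group means. *ETR1* and *ETR7* reach 0.84 and 0.68, whereas *ETR4* and *NR* give 0.69 and -0.12.

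Further genes of the ethylene pathway were taken from a list of 20 identifiers written from general knowledge of tomato. The sources used here give no names for these identifiers, so they are described as groups only. The shares of all genes called higher and lower were 6.94% and 5.59% at 5 h, and 11.8% and 12.5% at 24 h. Of 9 tested genes of 10 held to act in signal transduction (kinases of the CTR1 type, EIN3-like factors and their F-box proteins), 2 were called higher and 0 lower at 5 h, and 7 higher and 0 lower at 24 h, where the median log2FC was 0.77. Of 6 tested genes held to respond to ethylene, 0 were called higher and 1 lower at 5 h, and 3 higher and 0 lower at 24 h. Of 2 tested genes of 4 held to act in ethylene synthesis, 0 were called at 5 h and 2 were higher at 24 h. Together 12 of 17 were called higher at 24 h, and the other 5 were not called. Their log2FC ran between 0.37 and 2.28, and the median was 0.95. For the difference between 24 h and 5 h, 1 of the 17 was called higher and 0 lower, where 0.687% of all genes were higher and 1.47% lower.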

How the data were processed

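Paired reads were trimmed (Trimmomatic), mapped (BWA-MEM) and assigned to genes (FeatureCounts) by the authors, who deposited raw counts of 34075 genes as whole numbers, not normalized. The strand setting and the handling of multiply mapped reads were not given in the sources used here, so similar copies may share counts. Depth was 19655669 to 28209033 counts, and 3 counts correspond to 0.0960 to 0.167 CPM (counting error only).

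The analysis used edgeR 4.0.16 and limma 3.58.1 under R 4.3.3, TMM scaling, genes above 1 CPM in at least 3 libraries, 1 mean per group and all 12 libraries. The quasi-likelihood F test was used, with Benjamini-Hochberg adjustment over 18200 genes. The SE is the log2FC divided by the square root of F. Scripts were tested on simulated data. Correlations used log2 CPM with a prior count of 2.

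The named genes are the 8 members, with the gene most like a member by Pearson r. Members and lists were chosen with earlier results of these data known. The photosynthesis list, 26 genes from a shortened table, was added after the files were seen. A RefSeq table (assembly SLM_r2.1) matched 0 identifiers. It held all 8 member symbols, each on its identifier's chromosome. Names follow the gene list of the study design.

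Alternatives were DESeq2 1.42.0 (size factors and Wald test), library totals, no filter, filterByExpr, the likelihood ratio test, the libraries of a comparison alone, the replicate block, a limit of 1.5 on the absolute log2FC, and each library left out.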

Additional observations from a re-analysis of the deposited data

How the results depend on the processing

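Over the 585 log2FC of single genes under other settings, 538 kept direction and side of the threshold, 23 kept direction but lost the call, 9 gained one and 15 changed sign. Most of the 585 were of genes not called in the main analysis, which had no call to lose. All 23 lost calls were those of *ETR1*, *ETR4*, *ETR5* and *EIN2* at 24 h. With a library left out, these calls held in 9 of 12 fits for *ETR1*, 9 for *ETR4*, 4 for *ETR5* and 11 for *EIN2*. All sign changes were in values near 0. With a library left out, *ETR1* at 5 h ranged between -0.19 and 0.16, *ETR5* at 5 h between -0.16 and 0.22, *ETR7* at 5 h between -0.13 and 0.17, *ETR2* at 24 h between -0.030 and 0.44, and the difference of *NR* between the times between -0.21 and 0.19. For *NR* it was 0.16 with library totals only. The number of members called at 24 h, 4 in the main analysis, was 0 with the libraries of 24 h alone, 0 with a limit of 1.5 on the absolute log2FC and 1 to 4 with a library left out. It was 5 with library totals only, with the likelihood ratio test and with DESeq2's Wald test. For the difference between the times it was 0, and 0 to 1 with a library left out. For control 24 h against control 5 h it was 1, and 1 to 2 with a library left out. The added call was a lower level in control 24 h, of *ETR1*, *ETR5* or *EIN2*. The cause was not tested.

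As a check of pairing, the deviations of same-numbered infested and control libraries were correlated. The r was -0.13, -0.05 and -0.02 at 5 h and 0.06, 0.05 and 0.26 at 24 h. For differently numbered libraries it was -0.10 to 0.16 at 5 h and -0.22 to 0.11 at 24 h. Deviations from the mean of so few libraries depend on each other, so these values cannot decide whether replicate numbers pair the samples. With the replicate block, 1 member was called at 5 h, 4 at 24 h, 0 for the difference and 1 between the controls, and no member's call changed.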
